A study of Macaca mulatta with 2 samples.

Results

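Expression of 48 Wnt signalling genes was examined in macaque optic nerve, out of 16684 genes listed in the table of expression values. The rule of selection was the gene symbol and used no measured value, but it was set with earlier results of these data known. The selection held 19 Wnt ligands, 10 Frizzled receptors, the co-receptors *LRP5* and *LRP6*, 10 secreted inhibitors (*SFRP1*, *SFRP2*, *SFRP4*, *SFRP5*, *FRZB*, *WIF1*, *DKK1*, *DKK2*, *DKK3* and *DKK4*), 3 R-spondins (*RSPO1*, *RSPO2* and *RSPO3*), and 4 intracellular genes, namely *CTNNB1*, *TCF7L2*, *LEF1* and *AXIN2*. Bulk RNA-seq was performed on optic nerves of wild-type, untreated rhesus macaques (*Macaca mulatta*), which gave 1 condition with 2 libraries, named Rep1 and Rep2. The nerves were discarded tissue collected postmortem, from a 12-year-old male according to the methods of the study and from 2 animals according to the description of the series, so the libraries may be nerves of 1 animal and the spread between them may be technical. Values are in TPM, the part of a library that falls to a gene once its length is taken into account, so levels may be compared between genes. With 1 condition there was no comparison between groups and no p-value, and the difference between the libraries served as the measure of error.

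Rep1 was much shallower than Rep2, with a single Rep1 read counting for the same TPM as 17.2 Rep2 reads. Genes at 0 numbered 6425 in the first library and 2082 in the second. The markers of the nerve were present, with all 8 oligodendrocyte, all 8 astrocyte and all 6 fibroblast markers above 0 in both libraries. Their summed levels were 46086 TPM in Rep1 and 212682 in Rep2 for oligodendrocytes, 1148 and 7342 TPM for astrocytes, and 1618 and 15164 TPM for fibroblasts. Most of the oligodendrocyte sum was *MBP* (43721.5 TPM in Rep1 and 199595 in Rep2), named after its values were seen. Markers of photoreceptors and neurons went the other way in sum. The 7 photoreceptor markers used summed to 2787 TPM in Rep1, with 3 of them at least 2-fold higher there, and to 9.03 TPM in Rep2, where *CRX* was at 0. The 5 neuronal markers summed to 1903 and 38.3 TPM, with 2 at least 2-fold higher in Rep1, the other 3 lower there, and none at 0. The sums in Rep1 were mostly *GNAT1* (2763 TPM), *SNAP25* (1121 TPM) and *SYT1* (769 TPM), named after their values were seen. Of all genes whose mean reached 1 TPM, 76.9% were at least 2-fold apart. Since the libraries differed this widely and in depth, levels are given for each library. In bulk tissue, fewer cells of a type and less RNA per cell cannot be told apart.

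Wnt ligands are secreted lipid-modified proteins that bind Frizzled receptors together with LRP5 or LRP6. In the canonical branch this keeps β-catenin, the product of *CTNNB1*, from being broken down, and β-catenin then works with TCF and LEF factors on target genes such as *AXIN2*. Secreted Frizzled-related proteins and WIF1 bind the ligands, most Dickkopf proteins act on LRP5 and LRP6, and R-spondins keep Frizzled receptors at the cell surface. In the central nervous system the pathway is known for its part in the blood-brain barrier, in the timing of oligodendrocyte differentiation and in the vessels of the retina.

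The secreted Frizzled-related proteins carry a cysteine-rich domain like that of the receptors. Coding sequence of this domain is shown for 4 of the inhibitors, among them the 2 most abundant, and *SFRP1* was left out. The stretch was placed around the longest run that *FRZB* shares with *SFRP4*. The stretches shown here are 60 coding bases of *SFRP4* and the bases aligned with them, codon by codon, in 3 relatives, from RefSeq transcripts of the Mmul_10 assembly. Capitals mark bases identical to *SFRP4*, and in the *SFRP4* line they mark the 25 bases identical in all 4 genes.
SFRP4: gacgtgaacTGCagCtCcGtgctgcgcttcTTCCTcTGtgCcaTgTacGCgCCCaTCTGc
FRZB: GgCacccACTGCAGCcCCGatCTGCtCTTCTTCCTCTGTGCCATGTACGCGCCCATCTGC
SFRP5: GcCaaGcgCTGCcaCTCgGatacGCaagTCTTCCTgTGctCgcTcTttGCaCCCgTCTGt
SFRP2: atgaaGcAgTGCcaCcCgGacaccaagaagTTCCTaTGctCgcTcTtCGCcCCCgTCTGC
*FRZB* matched *SFRP4* at 51 of 60 bases (85.0%), *SFRP5* at 34 (56.7%) and *SFRP2* at 29 (48.3%). The placement of the stretch favoured *FRZB*, so these matches do not rank the relatives over the whole domain. On the genome these stretches lie at chr3:77252131-77252190 (plus strand) for *SFRP4*, chr12:69968874-69968933 (minus) for *FRZB*, chr9:98220816-98220875 (minus) for *SFRP5* and chr5:151427251-151427310 (minus) for *SFRP2*. *SFRP4* and *FRZB* share an unbroken run of 37 bases in exon 1 of both genes, which begins inside these stretches and ends just past them.

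Longer runs are shared among the Frizzled receptors. They are shown because a read that falls inside such a run could have been assigned to either gene or to neither, and the treatment of such reads is not given in the sources used here. All are coding.
FZD5 and FZD8: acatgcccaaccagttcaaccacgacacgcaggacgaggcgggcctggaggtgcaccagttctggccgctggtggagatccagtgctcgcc
FZD2 and FZD7: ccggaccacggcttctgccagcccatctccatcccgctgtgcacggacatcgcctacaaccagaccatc
FZD1 and FZD7: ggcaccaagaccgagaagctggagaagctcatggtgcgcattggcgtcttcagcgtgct
The first run is 91 bases long, at chr12:95186791-95186881 in *FZD5* and chr9:36600908-36600998 in *FZD8*. The second is 69 bases long, at chr16:55821737-55821805 in *FZD2* and chr12:89352446-89352514 in *FZD7*. The third is 59 bases long, at chr3:114830976-114831034 in *FZD1* and chr12:89353688-89353746 in *FZD7*. These runs take up little of each transcript. Stretches of 50 bases found also in another gene made up 1.42% of those of *FZD8*, 0.883% of *FZD7* and 0.145% of *FZD1*, and 37 of the 48 genes had none. The exceptions outside the receptors were led by *WNT8B*, with 23.0% shared with *SEC31B*, and by *WNT1* and *WNT10B*, with 7.48% and 5.05%, which overlap each other on opposite strands, so that reads from the overlap cannot be told apart without strand.

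Of the 48 genes, 43 had a value above 0 in 1 or both libraries (88.1% of all listed genes did) and 30 in both (60.9% of all listed genes). In Rep1, 18 were at 0, beside 38.5% of all listed genes, and in Rep2, 5 were, beside 12.5%. The 5 at 0 in Rep2 were at 0 in both, namely *WNT3A*, *WNT8A*, *WNT8B*, *WNT9B* and *DKK1*. At least 1 TPM was reached in both libraries by 24 genes (50%), beside 53.9% of all listed genes. The secreted inhibitors took the largest part of the signal outside the cell. Their summed level was 793 TPM in Rep1 and 4965 in Rep2, which was 70.0% and 94.1% of the sum over ligands, receptors, co-receptors, inhibitors and R-spondins. The ligands summed to 25.2 TPM in Rep1 and 140 in Rep2, so the inhibitors exceeded them 31.4 times and 35.5 times. The Frizzled receptors summed to 54.3 and 53.7 TPM, and against these the inhibitors stood 14.6 times higher in Rep1 and 92.5 times higher in Rep2. Without *SFRP4*, the most abundant of them, the inhibitors still summed to 536 and 2349 TPM.

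**Figure D1:**
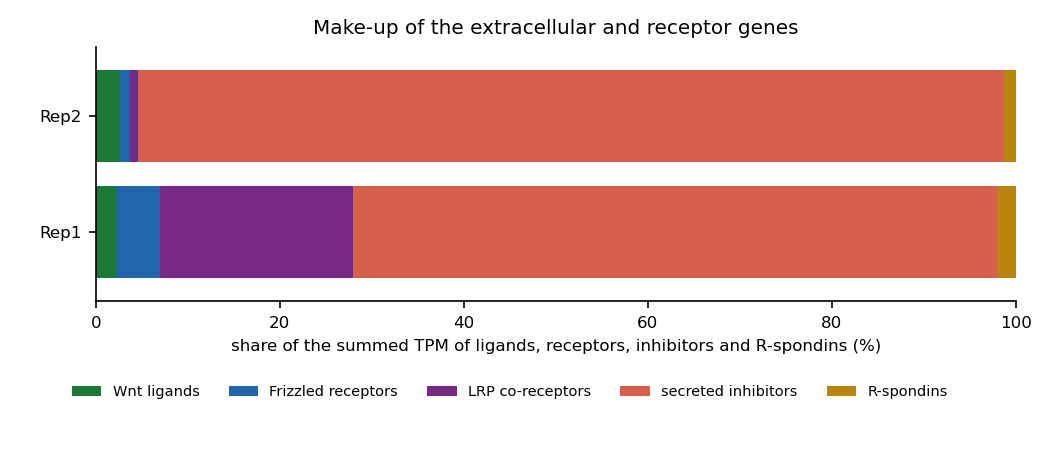
Share of each role in the summed TPM of the 44 genes outside the intracellular group, in percent, with 1 bar per library. The secreted inhibitors fill 70.0% of the bar of Rep1 and 94.1% of that of Rep2, and the co-receptors take 20.9% in Rep1 and 0.934% in Rep2.

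*SFRP4* and *SFRP2*, which encode secreted Frizzled-related proteins, were the highest of the extracellular genes. *SFRP4* (chromosome 3, 77251894 to 77261487) was at 257 TPM in Rep1 and 2616 in Rep2, a mean of 1437 ± 1668 TPM (SD, n = 2). It stood at rank 676 of all genes in Rep1 and at rank 21 in Rep2, from at least 221 and 38643 reads. *SFRP2* (chromosome 5, 151419262 to 151427839) was at 354 TPM in Rep1 and 1104 in Rep2, a mean of 729 ± 531 TPM (SD, n = 2), at ranks 483 and 69. *SFRP2* was thus the higher of the pair in Rep1 and *SFRP4* in Rep2, and the step between them on the mean was 0.215 times the SD of a single library on the log2(TPM + 1) scale. This SD was taken from how far Rep1 and Rep2 lay apart in 200 genes of similar mean level.

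The next inhibitors were *DKK3*, *WIF1*, *FRZB* and *DKK2*. *DKK3* (chromosome 14, 53614484 to 53661461), a divergent Dickkopf gene, was at 109 TPM in Rep1 and 584 in Rep2, a mean of 346 ± 336 TPM (SD, n = 2). *WIF1* (chromosome 11, 64626597 to 64698859), which encodes a protein that binds Wnt ligands directly, was at 8.69 and 289 TPM, a mean of 149 ± 198 TPM (SD, n = 2). Its Rep2 value was 33.2 times its Rep1 value, the widest gap among the inhibitors above 0 in both libraries, and the Rep1 value rested on at least 5 reads. *FRZB* (chromosome 12, 69938357 to 69970301), also known as *SFRP3*, was at 32.5 and 184 TPM, and *DKK2* (chromosome 5, 105329239 to 105436758) at 27.2 and 148 TPM. All of these were lower in Rep1, and *DKK3*, *FRZB* and *DKK2* differed by similar factors of 5.37, 5.66 and 5.45.

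*SFRP1* was at 5.20 TPM in Rep1 and 35.4 in Rep2. *SFRP5* and *DKK4* were at 0 in Rep1 and at 4.95 and 0.257 TPM in Rep2. In the order of the mean log2 level, *DKK3* was 0.989 SDs above *FRZB*, *WIF1* 1.17 SDs above *SFRP1*, and *SFRP1* 1.70 SDs above *SFRP5*. The neighbours *FRZB*, *DKK2* and *WIF1* were within 0.189 SDs of each other in each step, so their order is not resolved. By mean TPM, 6 of the inhibitors lay between percentile 87.4 (*DKK2*) and percentile 99.6 (*SFRP4*) of the 14693 genes detected in either library.

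All 8 inhibitors whose mean reached 1 TPM were at least 2-fold lower in Rep1, beside 58.7% of all genes, and once scaled by the median of ratios 7 of them were, beside 40.3% of all genes, with *SFRP2* at -0.45 (log2, Rep1 minus Rep2). That scaling corrects a general shift of -1.19 (log2) of Rep1 against Rep2. The median difference of the 9 detected inhibitors was -2.46 as deposited and -1.30 after the scaling. The 6 fibroblast markers were lower in Rep1 as well, with a median of -3.16 as deposited and -1.97 after the scaling, and none of them was at 0. Medians as deposited were also low for oligodendrocyte (-2.36), astrocyte (-2.17), microglia and macrophage (-2.61) and mural markers (-2.27). After the scaling these were -1.18, -1.23, -1.54 and -1.38, so the fall was not particular to fibroblasts. Endothelial (-0.96), pigment epithelium (-0.34), neuronal (-0.0055) and photoreceptor (0.99) medians were higher as deposited, and positive after the scaling. The part of fibroblasts or of any other of these cell types in the inhibitor levels was not tested.

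**Figure D2:**
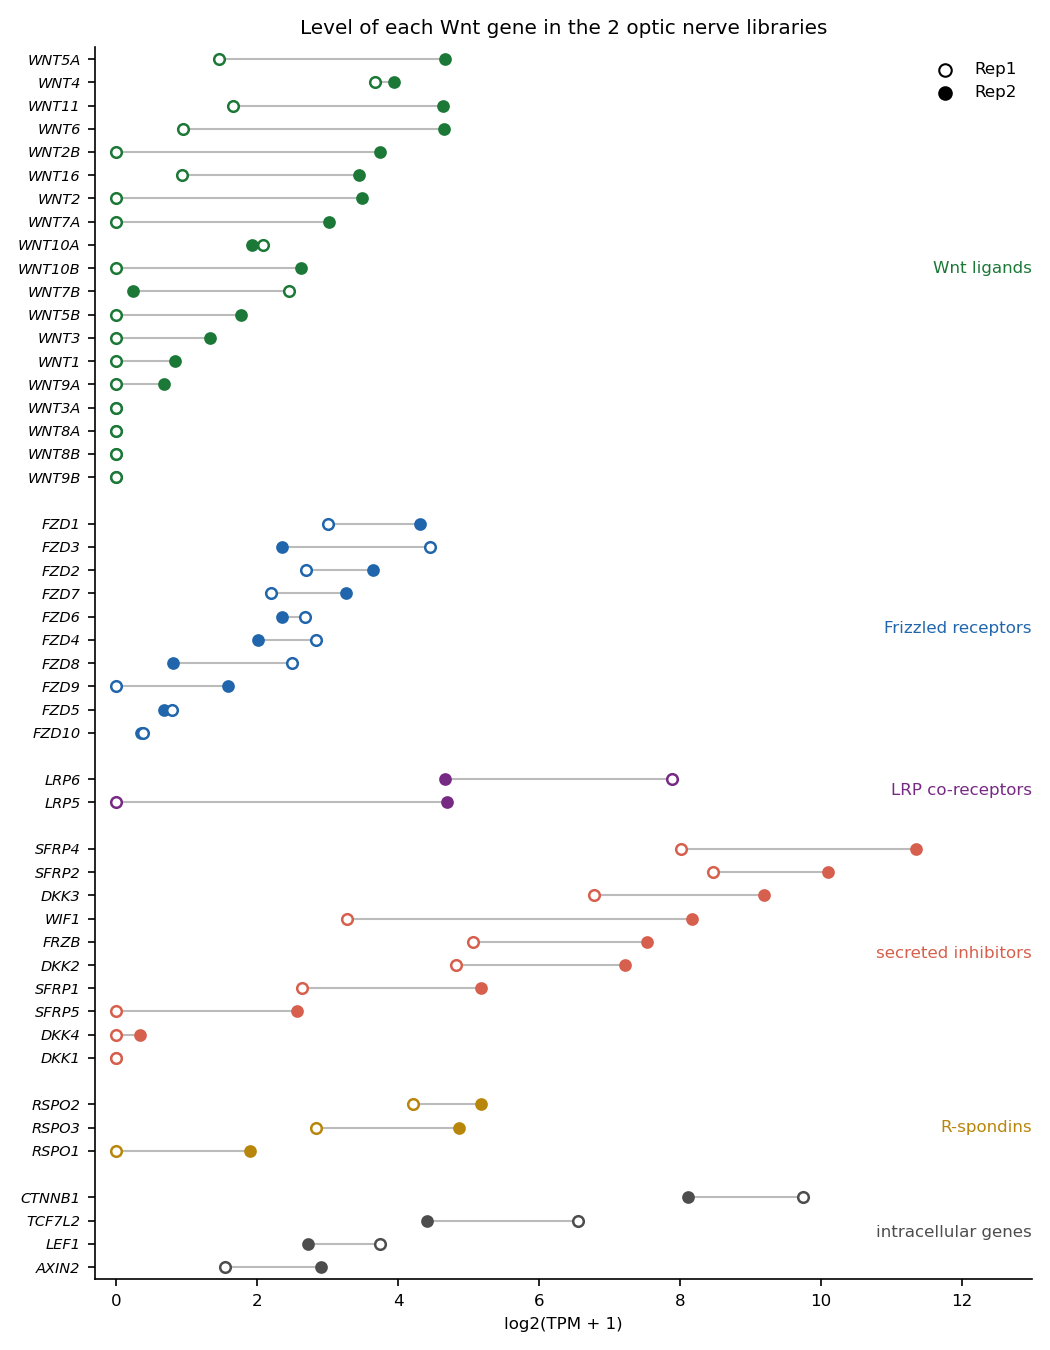
Level of each of the 48 genes as log2(TPM + 1), grouped by role and ordered by mean TPM, with open circles for Rep1, filled circles for Rep2 and a line joining them. The secreted inhibitors *SFRP4* and *SFRP2* reach the highest levels outside the cell. Of the 19 ligands, 8 detected in Rep2 sit at 0 in Rep1, as do 4434 of all 16684 listed genes.

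Wnt ligands were low in both libraries, and the highest single value was 24.4 TPM. Of the 19 ligands, 7 (36.8%) were above 0 in both libraries, beside 60.9% of all listed genes. Another 8 were above 0 in Rep2 only and 4 in neither, beside 4434 and 1991 of all 16684 listed genes. *WNT5A*, a ligand known for signalling without β-catenin, was at 1.75 TPM in Rep1 and 24.4 in Rep2. *WNT6* was at 0.936 and 24.1 TPM, and *WNT11*, another ligand of the non-canonical branch, at 2.14 and 23.8 TPM. For all 3 the Rep1 value can rest on as little as 1 read, against at least 240, 442 and 191 reads in Rep2. *WNT4* differed least of the 4 highest ligands as deposited, with 11.8 TPM in Rep1 and 14.4 in Rep2, a mean of 13.1 ± 1.81 TPM (SD, n = 2) from at least 11 and 230 reads. Once scaled by the median of ratios its mean was 20.6 TPM and its difference 0.86 (log2, Rep1 minus Rep2).

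*WNT16* was at 0.903 TPM in Rep1 and 9.85 in Rep2, and *WNT10A* at 3.22 and 2.81 TPM. *WNT2B* reached 12.5 TPM in Rep2, *WNT2* 10.2 TPM, *WNT7A* 7.14 TPM, *WNT10B* 5.17 TPM and *WNT5B* 2.40 TPM, all of them listed at 0 in Rep1. *WNT3*, *WNT1* and *WNT9A* were between 0.593 and 1.51 TPM in Rep2 and at 0 in Rep1. Such zeros were common at these levels. Of the 200 genes nearest to *WNT2B* in Rep2 level, 28.5% were at 0 in Rep1, and for *WNT9A* the share was 73.5%.

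*WNT7B*, which together with *WNT7A* is known to act on brain endothelium, had the reverse pattern. It was at 4.48 TPM in Rep1 and 0.183 in Rep2, from at least 10 and 7 reads, whereas *WNT7A* was at 0 in Rep1 and at 7.14 TPM in Rep2. Of the 12 ligands whose mean reached 1 TPM, *WNT7B* was the only one at least 2-fold higher in Rep1 as deposited, beside 18.2% of all genes. Another 9 were at least 2-fold higher in Rep2, beside 58.7%. After scaling by the median of ratios *WNT10A* joined *WNT7B*, with a difference of 1.13 (log2, Rep1 minus Rep2). The counts of 12 were then 2 and 9, beside 29.7% and 40.3% of all genes. None of the 14 steps between neighbouring ligands reached 1 SD of a single library, and the largest was 0.387 SDs, from *WNT4* to *WNT11*. The order of neighbouring ligands was therefore not resolved, and ligands further apart in the order were not compared.

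The Frizzled receptors, the ligand-binding subunits, had mean levels from 0.291 TPM (*FZD10*, percentile 10.6) to 12.9 TPM (*FZD1*, percentile 55.6), and all 10 were detected. *FZD1* was at 7.05 TPM in Rep1 and 18.8 in Rep2, *FZD2* at 5.48 and 11.4 TPM, and *FZD7* at 3.59 and 8.63 TPM. These 3, which form a subfamily with closely related sequences, differed between the libraries by factors of 2.66, 2.09 and 2.40, close to the general shift. Once scaled by the median of ratios they differed by -0.21, 0.12 and -0.07 (log2, Rep1 minus Rep2).

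*FZD3* was at 20.9 TPM in Rep1 and 4.12 in Rep2, from at least 13 and 44 reads, and *FZD8* at 4.65 and 0.740 TPM, from at least 15 and 41 reads. Of the 7 receptors whose mean reached 1 TPM, these 2 were at least 2-fold higher in Rep1 as deposited, beside 18.2% of all genes. Another 2 were at least 2-fold higher in Rep2, beside 58.7%. *FZD6*, which like *FZD3* is known for planar cell polarity, was at 5.43 and 4.09 TPM, and *FZD4*, the receptor for Norrin in retinal vessels, at 6.15 and 3.02 TPM. After scaling, *FZD6* and *FZD4* joined *FZD3* and *FZD8*, so that 4 of 8 receptors whose mean reached 1 TPM were at least 2-fold higher in Rep1, beside 29.7% of all genes, and none was at least 2-fold lower.

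*FZD9* was at 1.99 TPM in Rep2 and at 0 in Rep1, while *FZD5* and *FZD10* were below 1 TPM in both libraries. The summed level of the family was 54.0 ± 0.452 TPM (SD, n = 2). The match of the sums held for the values as deposited and not under the scaling, which raised the mean of the sum to 88.9 TPM, and single receptors differed in both directions. No step between neighbouring receptors reached 1 SD, the largest being 0.585 SDs from *FZD8* to *FZD9*. The summed photoreceptor, neuronal, endothelial and pigment epithelium markers were higher in Rep1, as *FZD3* and *FZD8* were. In Rep1 the endothelial sum was mostly *SLC2A1* and the pigment epithelium sum mostly *RLBP1*, named after their values were seen. By median difference as deposited, endothelial (-0.96), pigment epithelium (-0.34) and neuronal markers (-0.0055) were lower in Rep1. The part of these cell types in the levels of *FZD3* and *FZD8* was not tested.

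The co-receptors *LRP5* and *LRP6* differed between the libraries in opposite directions. *LRP6* (chromosome 11, 13496433 to 13645349) was at 236 TPM in Rep1 and 24.3 in Rep2, from at least 142 and 251 reads, so that Rep1 was 9.72 times higher. *LRP5* (chromosome 14, 6323377 to 6464987) was at 24.9 TPM in Rep2, level with *LRP6* there, but at 0 in Rep1. A zero was less common at this level, with 15.0% of the 200 genes nearest to *LRP5* in Rep2 being at 0 in Rep1. On the mean, *LRP6* stood 2.12 SDs above *LRP5*, the largest step between any neighbours of 1 role, but this order held in Rep1 and not in Rep2. Both genes overlap other annotated loci, which for *LRP6* include pseudogenes on both strands and for *LRP5* a non-coding RNA on the opposite strand.

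R-spondins, which enhance Wnt signalling through the receptors LGR4, LGR5 and LGR6, were at levels like those of the higher ligands. *RSPO2* was at 17.6 TPM in Rep1 and 35.1 in Rep2, a mean of 26.4 ± 12.4 TPM (SD, n = 2). *RSPO3* was at 6.12 and 28.1 TPM, a mean of 17.1 ± 15.5 TPM (SD, n = 2). The Rep1 values of this pair rested on at least 3 and 4 reads. *RSPO1* was at 0 in Rep1 and at 2.71 TPM in Rep2, and lay 2.01 SDs below *RSPO3* on the mean. *RSPO2* and *RSPO3* were in the same order in both libraries and 0.509 SDs apart.

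Of the 4 selected genes acting inside the cell, 3 were at least 2-fold higher in Rep1 and 1 in Rep2, beside 18.2% and 58.7% of all genes. After scaling by the median of ratios the counts were 3 and 0, beside 29.7% and 40.3%. *CTNNB1* (chromosome 2, 97167418 to 97208446) was at 860 TPM in Rep1 and 275 in Rep2, a mean of 568 ± 413 TPM (SD, n = 2), from at least 727 and 4000 reads. *TCF7L2* (chromosome 9, 113474926 to 113693230), which encodes a transcription factor of the pathway that is known from differentiating oligodendrocytes, was at 92.8 and 20.3 TPM. *LEF1*, a related factor, was at 12.4 and 5.60 TPM. These 3 were 3.12, 4.57 and 2.21 times higher in Rep1, and the summed photoreceptor and neuronal markers, given above, were also higher there. So were the sums of endothelial (446 TPM in Rep1 and 208 in Rep2) and pigment epithelium markers (112 and 59.5 TPM). In Rep1 these sums were mostly *SLC2A1* (388 TPM in Rep1 and 81.6 in Rep2) and *RLBP1* (76.7 and 6.12 TPM). Singly, 2 endothelial markers were at least 2-fold higher in Rep1 and 4 in Rep2, and 1 pigment epithelium marker each way. The part of these cell types in these levels was not tested. The summed oligodendrocyte markers were lower in Rep1, as all 8 were singly.

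*AXIN2*, an inhibitor of the pathway that is also one of its classical target genes, went the other way, with 1.91 TPM in Rep1 and 6.50 in Rep2. Its Rep1 value can rest on 2 reads, and after scaling its difference was -0.48 (log2, Rep1 minus Rep2). *CTNNB1* was 2.03 SDs above *TCF7L2* and *TCF7L2* 1.41 SDs above *LEF1*, in the same order in both libraries. *LEF1* and *AXIN2* were 0.552 SDs apart and their order differed between the libraries.

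Between the libraries, 30 of the 36 genes whose mean reached 1 TPM were at least 2-fold apart, beside 76.9% of all genes. Of these, 7 were at least 2-fold higher in Rep1 on the log2(TPM + 1) scale (18.2% of all genes) and 23 were at least 2-fold higher in Rep2 (58.7% of all genes). After scaling by the median of ratios the counts were 10 and 18 of 37, beside 29.7% and 40.3% of all genes (70% in either direction). The share of the genes at least 2-fold apart that were higher in Rep1 was thus 23.3% as deposited and 35.7% after the scaling, beside 23.6% and 42.4% over all genes. The 7 genes higher in Rep1 as deposited were *LRP6*, *TCF7L2*, *CTNNB1*, *LEF1*, *FZD3*, *FZD8* and *WNT7B*. The median difference over the 43 detected genes was -1.37 (log2, Rep1 minus Rep2) beside -1.07 over all 14693 detected genes, and -0.83 beside -0.47 after the scaling. The roles differed in their medians, with -2.51 for the ligands, -2.46 for the inhibitors, -1.89 for the R-spondins, -0.73 for the co-receptors, 0.074 for the Frizzled receptors and 1.33 for the intracellular genes. After scaling, these medians were -1.83, -1.30, -0.96, -0.14, 0.58 and 2.49, in the same order.

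**Figure D3:**
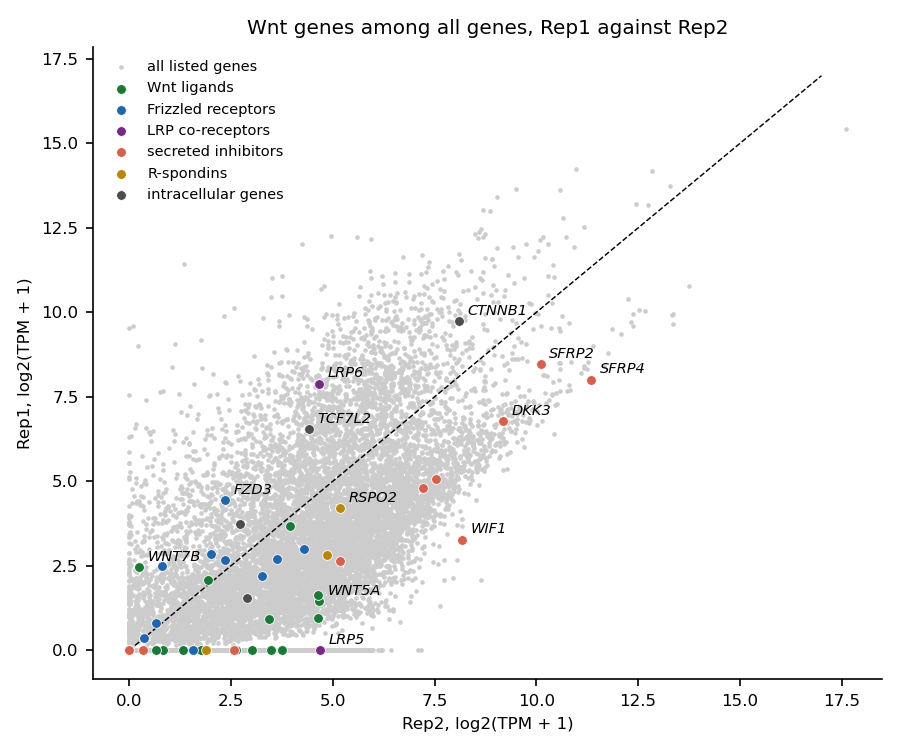
Level of every listed gene in Rep2 (horizontal) and Rep1 (vertical) as log2(TPM + 1), with the 48 Wnt genes coloured by role and the dashed line marking equal levels. *CTNNB1*, *LRP6*, *TCF7L2*, *FZD3* and *WNT7B* lie above the line, and the secreted inhibitors lie on or below it.

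The rest of the pathway was represented by 68 listed genes in 9 lists. Of these, 64 were above 0 in at least 1 library and 52 in both, beside 88.1% and 60.9% of all listed genes. Of the 54 whose mean reached 1 TPM, 12 were at least 2-fold higher in Rep1 and 25 in Rep2, beside 18.2% and 58.7% of all genes, and once scaled by the median of ratios 20 and 14 were, beside 29.7% and 40.3%. The median difference of the 64 genes was -0.84 (log2, Rep1 minus Rep2) as deposited and -0.12 after the scaling. Over all 14693 detected genes it was -1.07 and -0.47. For the 54 genes alone the median after the scaling was 0.25, beside -0.46 over all genes under the same filter.

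Of the 5 genes for making, releasing and inactivating ligands, 1 was high in both libraries. *WLS*, which encodes the carrier that takes Wnt ligands to the cell surface, was at 128 TPM in Rep1 and 148 in Rep2. *PORCN*, which encodes the enzyme that attaches their lipid, was at 113 and 3.82 TPM, from at least 191 and 111 reads. *NOTUM*, whose product removes that lipid, was at 8.24 TPM in Rep2 and at 0 in Rep1.

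Other receptors and modulators at the cell surface were at low to middle levels. *RYK*, a Wnt receptor outside the Frizzled family, was at 63.1 TPM in Rep1 and 41.4 in Rep2, the glypican gene *GPC3* at 34.4 and 17.9 TPM, and *TPBG* at 4.95 and 45.4 TPM. In the R-spondin branch, the receptor *LGR4* was at 3.15 and 16.8 TPM, *LGR6* at 1.77 and 0.617 TPM, and *ZNRF3*, an E3 ligase that removes Frizzled receptors, at 3.56 and 2.16 TPM. Of the 3 listed genes of the Norrin and RECK group, known from retinal and brain vessels, *RECK* was at 8.05 and 29.99 TPM, *TSPAN12* at 8.55 and 16.7 TPM and *NDP*, the gene of Norrin, at 1.65 and 20.1 TPM. All 3 were lower in Rep1 as deposited, and 2 were at least 2-fold lower, beside 58.7% of all genes. After the scaling 1 was, beside 40.3%, and *TSPAN12* was at 0.22 (log2, Rep1 minus Rep2).

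Among further extracellular inhibitors, *APCDD1* was at 6.26 TPM in Rep1 and 83.9 in Rep2. *KREMEN1*, which encodes a receptor for Dickkopf proteins, was at 13.1 TPM and *SOSTDC1* at 1.85 TPM in Rep2, both at 0 in Rep1, while *SOST* and *DKKL1* were at 0 in both. Both genes of this list whose mean reached 1 TPM, *APCDD1* and *KREMEN1*, were at least 2-fold lower in Rep1, beside 58.7% of all genes as deposited and 40.3% after the scaling, under which both remained so.

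All 15 genes of the cytoplasmic list were above 0 in both libraries, beside 60.9% of all listed genes. Of these, 8 were at least 2-fold higher in Rep1 and 5 in Rep2, beside 18.2% and 58.7% of all genes, and the counts after scaling were 10 and 2, beside 29.7% and 40.3%. *CSNK1A1*, the casein kinase gene whose product first phosphorylates β-catenin, was at 1681 TPM in Rep1 and 157 in Rep2. *GSK3B*, which encodes the kinase that completes this phosphorylation, was at 192 and 26.6 TPM, and its relative *GSK3A* at 26.6 and 3.88 TPM. *CSNK1D* was at 440 and 149 TPM, *CSNK1E* at 202 and 86.3 TPM, and *TNKS2*, a tankyrase gene, at 43.1 and 6.18 TPM. The scaffold gene *AXIN1* was among those lower in Rep1, with 0.891 and 5.72 TPM, and was named after its values were seen.

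Nuclear partners of β-catenin differed in both directions. The co-repressor *TLE1* was at 134 TPM in Rep1 and 40.6 in Rep2, *BCL9* at 59.7 and 8.77 TPM and *BCL9L* at 39.1 and 17.1 TPM. These are the 3 of the 10 listed genes at least 2-fold higher in Rep1, beside 18.2% of all genes. Another 4 were at least 2-fold higher in Rep2, beside 58.7%. After scaling by the median of ratios the counts were 4 and 1, beside 29.7% and 40.3%. Of the feedback and target genes, *CCND1*, which encodes cyclin D1, was at 254 and 597 TPM, *NKD1* at 6.60 and 10.2 TPM, and *TNFRSF19* at 7.43 TPM in Rep2 and 0 in Rep1. All 5 of this list were lower in Rep1 as deposited, but only 2 were above 0 there, where 38.5% of all listed genes were at 0. Of the 3 whose mean reached 1 TPM, 2 were at least 2-fold lower in Rep1, beside 58.7% of all genes. After the scaling 1 was, beside 40.3%, with *CCND1* at -0.04 and *NKD1* at 0.52 (log2, Rep1 minus Rep2).

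**Figure D4:**
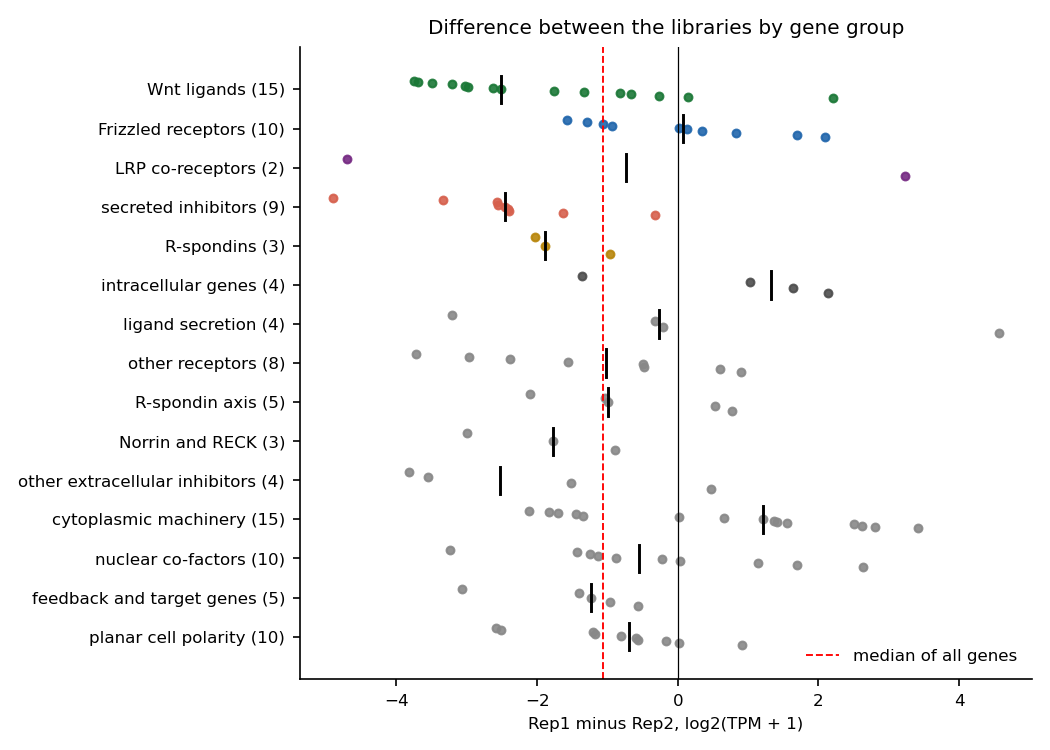
Difference between the libraries, Rep1 minus Rep2 on the log2(TPM + 1) scale, for each detected gene (points) with the median of each group (black bar), the number of genes in parentheses and the median of all genes as a dashed line. The Wnt ligands and secreted inhibitors have medians of -2.51 and -2.46, and the intracellular genes and the cytoplasmic machinery have medians of 1.33 and 1.21.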

How the data were processed

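Total RNA of 2 untreated macaque optic nerves was turned into libraries by the authors (SMARTer v4 Ultra Low Input). Per the submitters' processing notes and the methods of the study, Trim Galore 0.6.6 was used for trimming, STAR 2.7.1a for alignment to Mmul_10 and featureCounts 1.5.3 for counts per gene, which the authors normalized to TPM in R 4.2.0. The deposited values are therefore TPM, summing to 1000000 per library. The gene lengths, the use of strand and the treatment of reads with several alignments are not given in the sources used here. TPM is a share, so an abundant transcript in 1 library lowers all others there, and an absolute depth cannot be derived. The columns Rep1 and Rep2 carry no sample title and were treated as unnumbered replicates.

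Values were analysed with Python 3.11, numpy 2.4.6 and pandas 2.3.3. Differences were taken as log2(TPM + 1), which understates changes of low genes, and a gene was counted when its mean reached 1 TPM and its values were at least 2-fold apart. The SD of a single library was the root mean square difference of the 200 genes nearest in mean level, divided by the square root of 2. The smallest whole read numbers were derived from the ratio of a gene's values, with a relative tolerance of 1e-12, which gave whole numbers for 99.9% of the 10168 genes above 0 in both libraries, and they are lower bounds. Coordinates and transcripts of all 48 genes came from RefSeq (Mmul_10). Protein identities could not be computed, as no protein table was used here. The calculations were tested on simulated data. Alternatives were scaling by the median of ratios, a pseudocount of 0.1, omission of the 10 most abundant genes, other filters, the 500 nearest genes and each library alone. The genes and lists were chosen with earlier results of these data known. Text naming covered each of the 48 genes and, per pathway list, the 3 highest means and genes at least 4-fold higher in Rep1, and markers only where at 0, with exceptions stated. *ADGRA2* and *TLE4* of these lists were not analysed here. A further photoreceptor marker is not reported here and was left out of that list.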

Additional observations from a re-analysis of the deposited data

How the results depend on the processing

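No paired analysis was possible because both libraries belong to 1 condition. The median percentile of the detected genes was 42.7, and it was 49.5 among all listed genes and from 47.1 to 50.3 in single libraries. Scaling by the median of ratios raised the mean of the summed level to 88.9 TPM for the Frizzled receptors, 295 TPM for the co-receptors and 1258 TPM for the intracellular genes, since it multiplies Rep1, and leaving out the 10 most abundant genes gave 67.7 TPM for the Frizzled receptors. The number of neighbouring steps of at least 1 SD was 7 of 37, and from 8 to 13 in single libraries. With 2 libraries, both lie equally far from their mean, so single libraries say nothing about the stability of a mean and are left out of the counts that follow. Of the other alternatives for summaries, 27 stayed within the spread or within 1.5 times and 5 moved. For single detected genes 150 stayed within the spread and 26 moved. These took in library differences only for genes at least 2-fold apart, and none of those differences changed sign. Among the rest, scaling changed the sign for *WNT4* (log2 -0.26 to 0.86), *FZD2* (-0.94 to 0.12) and *RSPO2* (-0.96 to 0.19). The depth of Rep1 limits the low genes, as 12 of the 30 genes above 0 in both libraries can rest on fewer than 10 reads there, and a value of 0 does not show absence.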

Other observations

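Planar cell polarity genes, which use Frizzled receptors without β-catenin, were above 0 in most cases. All 10 listed genes were above 0 in Rep2 and 9 in Rep1, where *CELSR1* was at 0. Of all listed genes, 12.5% were at 0 in Rep2 and 38.5% in Rep1. *DAAM2* was at 16.04 TPM in Rep1 and 96.4 in Rep2, *DAAM1* at 32.5 and 48.6 TPM, and *INVS* at 6.82 and 12.6 TPM. Of the 8 with a mean of at least 1 TPM, none was at least 2-fold higher in Rep1 and 4 were at least 2-fold higher in Rep2, beside 18.2% and 58.7% of all genes, and once scaled by the median of ratios 1 and 2 were, beside 29.7% and 40.3%.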
